A study of Mus musculus with 3 samples.

Results

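The interleukin-1 (IL-1) and interleukin-18 (IL-18) system was described here through 8 of the 28692 genes counted in single cells from mouse mammary tumours, namely the cytokines Il1a, Il1b and Il18, the antagonist Il1rn, and the receptor chains Il1r1, Il1r2, Il1rap and Il18r1. The genes were chosen by symbol, and each symbol matched 1 row of the count matrices. The samples were 3 single-cell libraries of viable cells sorted as CD45-positive and DAPI-negative, so leukocytes were the target of the sort, from tumours that grew for 4 weeks after 2208L tumour cells were injected into the mammary gland, and that were taken at a diameter of 0.7 to 1 cm. The 3 libraries carry the same labels and form 1 group with no control, the labels do not say whether each came from a separate mouse, and strain and age were not given, so the comparisons below are between cell classes and neutrophil states within the libraries, and their p-values measure the spread between these libraries. The series title names ICAM1-high neutrophils, and neutrophils were the largest class in the libraries.

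IL-1 alpha and IL-1 beta, from Il1a and Il1b, both signal through the receptor chain IL-1R1 (Il1r1) joined by the accessory protein IL-1RAcP (Il1rap). The decoy receptor IL-1R2 (Il1r2) binds IL-1 without passing on a signal, and the antagonist from Il1rn occupies IL-1R1 without activating it. Pro-IL-1 beta and pro-IL-18 are cut to their active forms mainly by caspase-1 in inflammasomes, so a transcript level does not give the amount of active cytokine. IL-18 acts through IL-18R1 (Il18r1) and the accessory chain from Il18rap, chiefly on T cells and NK cells, where it promotes interferon-gamma production.

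In the GENCODE annotation of GRCm38, the receptor genes Il1r2, Il1r1 and Il18r1 lie in 1 run of 6 receptor genes on the plus strand of chromosome 1, from position 40074079 to 40551705 and so over 477.6 kb, with Il1rl2, Il1rl1 and Il18rap as the other genes of the run. Il1a and Il1b lie 54.6 kb apart on the minus strand of chromosome 2, Il1a at 129299610 to 129309972 and Il1b at 129364570 to 129371139. Il1rn lies on the plus strand of chromosome 2 at 24336853 to 24351494, Il1rap on chromosome 16 at 26581704 to 26730117 and Il18 on chromosome 9 at 50554827 to 50581840. The promoters of the IL-1 cytokines and of the decoy receptor, whose transcripts were highest in the same cells, are printed below from RefSeq (GRCm38.p6), from 250 bases before to 50 bases after the annotated start, 5′ to 3′ on the gene's strand, with motif matches in capitals.
Il1a, chr2:129309923-129310222, minus strand: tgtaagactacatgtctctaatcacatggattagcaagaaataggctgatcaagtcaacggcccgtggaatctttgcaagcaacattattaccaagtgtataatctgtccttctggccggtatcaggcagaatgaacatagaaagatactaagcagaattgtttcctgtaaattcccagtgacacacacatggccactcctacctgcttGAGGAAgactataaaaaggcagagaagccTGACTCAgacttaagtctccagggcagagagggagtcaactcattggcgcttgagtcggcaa
Il1b, chr2:129371090-129371389, minus strand: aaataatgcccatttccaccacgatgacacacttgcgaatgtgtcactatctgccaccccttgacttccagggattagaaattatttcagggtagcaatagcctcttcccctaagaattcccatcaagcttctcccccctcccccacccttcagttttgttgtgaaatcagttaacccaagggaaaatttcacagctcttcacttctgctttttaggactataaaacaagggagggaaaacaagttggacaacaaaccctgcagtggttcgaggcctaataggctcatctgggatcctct
Il1r2, chr1:40085843-40086142, plus strand: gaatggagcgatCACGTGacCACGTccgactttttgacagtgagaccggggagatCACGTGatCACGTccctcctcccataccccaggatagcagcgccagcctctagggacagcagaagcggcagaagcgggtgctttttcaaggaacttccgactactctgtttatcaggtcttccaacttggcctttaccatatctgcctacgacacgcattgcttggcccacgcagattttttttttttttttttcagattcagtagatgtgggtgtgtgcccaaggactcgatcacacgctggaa
6 motifs were searched on both strands: NF-kB by its name, PU.1 as GAGGAA, AP-1 as TGANTCA, CRE as TGACGTCA, C/EBP as TTGCNNAA and the hypoxia response core (HRE) as ACGTG. The Il1a window held 1 PU.1 match 41 bases before the start and 1 AP-1 match 12 bases before it, and the Il1b window held none of these letters. The Il1r2 window held 6 HRE matches, of which 2 pairs overlap as the palindrome that reads the same on both strands. Il1rn and Il1rap transcripts were highest in the same cells too, and their windows are not printed. Of 3 Il1rn windows 1 held an AP-1 match 141 bases before the start, and the Il1rap window held 1 HRE match 218 bases before it. Of 32851 mouse promoters of the same length, 28.28% held the PU.1 letters, 7.81% the AP-1 letters, 19.62% the HRE letters, 8.46% an NF-kB match, 10.8% the C/EBP letters and 1.79% the CRE letters. These matches describe letters only, and the RefSeq start of Il1r2 used for its window lies inside the GENCODE gene body.

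The libraries held 9846404, 15259236 and 9445914 UMIs (unique molecular identifiers, counts of captured transcripts), and 14225 of 14336 barcodes were kept. Clusters were named from marker genes as 6036 neutrophil-like, 3147 monocyte/macrophage-like, 499 dendritic-cell-like, 272 epithelial-like, 214 plasmacytoid-dendritic-cell-like, 77 B-or-plasma-cell-like, 502 NK-cell-like and 3210 T-cell-like barcodes, and 268 stayed unnamed. Neutrophil-like barcodes were 37.6%, 35.6% and 58.7% of libraries 1, 2 and 3, and their median of 901 UMIs was far below the 4280 of monocyte/macrophage-like and the 8749 of epithelial-like barcodes, so levels are given as CPM, a gene's UMIs scaled to a fixed total of UMIs for the class in a library. The epithelial-like class went against the sort, with 16.2 ± 10.5 CPM of Ptprc, which encodes CD45, against 222 to 620 CPM in the leukocyte classes. The neutrophil marker S100a8 was found in every class, at 25160 ± 1502 CPM in neutrophil-like cells and between 217 and 623 CPM in the others, and the part of free RNA in low levels of neutrophil transcripts elsewhere was not tested. In all, 91 barcode sequences occurred in at least 2 libraries, and 0 in all 3. Errors are SD over 3 libraries unless stated, and log2 differences carry the standard error from edgeR's quasi-likelihood test with TMM scaling, the library as a block and Benjamini-Hochberg adjustment over all genes tested.

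Il1b gave the most UMIs of the 8 genes, and neutrophil-like cells carried most of them. It stood at 11150, 13270 and 15280 CPM in neutrophil-like cells of libraries 1 to 3, against 1369, 1311 and 1298 CPM in dendritic-cell-like and 1176, 1846 and 1445 CPM in monocyte/macrophage-like cells. The neutrophil-like values were above those of all other classes in all 3 libraries, while the dendritic-cell-like and monocyte/macrophage-like ranges overlapped. Monocyte-like cells were above macrophage-like cells in Il1b within each library, at 1886, 2301 and 1887 CPM against 1017, 1629 and 1340 CPM. The monocyte-like group, used below for Il1a and Il18 too, was the cluster of 1033 barcodes led by Cd209a, Ms4a4c and Plac8. When barcodes were filtered more strictly, a cluster of 403 barcodes led by Cd209a was named dendritic-cell-like. The monocyte-like cluster, led by Chil3 and Plac8, then held 334 barcodes. The border between these names thus depended on the filter, and the part of dendritic cells in the monocyte-like levels was not tested. The remaining classes overlapped with each other, from 283 ± 40.4 CPM in T-cell-like to 495 ± 526 CPM in plasmacytoid-dendritic-cell-like cells. After each barcode was thinned to 600 UMIs, an Il1b UMI was found in 90.6 ± 2.0% of neutrophil-like, 44.8 ± 3.1% of dendritic-cell-like and 47.2 ± 5.8% of monocyte/macrophage-like barcodes, against 9.36 ± 1.16% of T-cell-like ones, a type that should lack it (before thinning 92.6%, 79.5%, 82.0% and 19.7%, at median depths of 901, 4480, 4280 and 1423 UMIs). Thinning left out 757 of the 6036 neutrophil-like barcodes. Neutrophil-like barcodes held a median of 11 Il1b UMIs each, 433 held none and 3351 held at least 10.

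Il1a was also highest in neutrophil-like cells. It reached 915.5, 542.5 and 840.6 CPM in neutrophil-like cells, against 42.7, 22.6 and 46.3 CPM in dendritic-cell-like and 94.1, 61.1 and 81.6 CPM in monocyte/macrophage-like cells. These 3 classes did not overlap, and all other classes were at or below 24.2 CPM in every library. Within the mononuclear phagocytes the pooled order was the opposite of that of Il1b. Il1a stood at 66.9, 55.9 and 38.1 CPM in monocyte-like and 100.1, 63.6 and 91.9 CPM in macrophage-like cells, in ranges that overlapped. The macrophage-like clusters differed in Il1a, with 99.0 ± 24.3 CPM in that led by Ms4a7 and Tmem119 and 105 ± 37.1 CPM in that led by Hist1h2ap and Birc5. The macrophage-like cluster led by Ccl8 and Retnla had 33.9 ± 2.0 CPM, below the monocyte-like cells, as was its Il1b at 1063 ± 361 CPM. There were 0.0594 ± 0.0210 Il1a UMIs per Il1b UMI in neutrophil-like, 0.0280 ± 0.0096 in dendritic-cell-like and 0.0565 ± 0.0235 in monocyte/macrophage-like cells. Dendritic-cell-like cells had the lowest proportion of these 3 classes in 3 of 3 libraries, a difference that was not tested. UMI counts mark 1 end of each transcript and were not divided by length, and capture can differ between genes, so a ratio of 2 genes is compared between cell types and not read as a ratio of molecules.

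Il1rn, the antagonist, was also highest in neutrophil-like cells. Its level was 2536, 1576 and 1810 CPM there, against 59.8, 53.5 and 64.8 CPM in dendritic-cell-like and 191.4, 183.7 and 202.7 CPM in monocyte/macrophage-like cells. Monocyte/macrophage-like cells stood above every other class but the neutrophil-like one in all 3 libraries, apart from a value of 409.0 CPM in the 24 B-or-plasma-cell-like barcodes of library 1. Neutrophil-like cells held 0.155 ± 0.063 Il1rn UMIs per Il1b UMI, close to the 0.134 ± 0.032 of monocyte/macrophage-like cells, and dendritic-cell-like cells held 0.0448 ± 0.0047.

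The decoy receptor Il1r2 was highest in neutrophil-like cells, where the signalling receptor Il1r1 had 5 UMIs in all. Il1r2 stood at 926.2, 851.5 and 824.8 CPM in neutrophil-like cells, against 116.0, 151.2 and 164.3 CPM in dendritic-cell-like and 47.2, 51.3 and 39.7 CPM in monocyte/macrophage-like cells, and these 3 ranges did not overlap. Il1r1 had 82 UMIs in all kept barcodes, of which 5 fell in neutrophil-like cells beside 5336 of Il1r2, 7 in dendritic-cell-like cells beside 347, 8 in epithelial-like cells beside 50, and 5 in monocyte/macrophage-like cells beside 724. T-cell-like cells held 56 of the 82, with 10.7, 5.98 and 17.2 CPM of Il1r1 and 13.9, 18.0 and 15.7 CPM of Il1r2. No Il1r1 UMI was seen in plasmacytoid-dendritic-cell-like or B-or-plasma-cell-like cells, which allows up to 3.76 and 19.2 CPM at a limit of 3 counts that covers counting error only. Il1rap, which IL-1R1 needs to signal, was highest in neutrophil-like cells too, at 76.6, 96.7 and 64.9 CPM. It came next in epithelial-like cells at 11.6, 17.2 and 16.7 CPM, which overlapped with NK-cell-like, plasmacytoid-dendritic-cell-like and monocyte/macrophage-like cells, and T-cell-like cells had 5.05, 3.19 and 4.29 CPM.

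**Figure D1:**
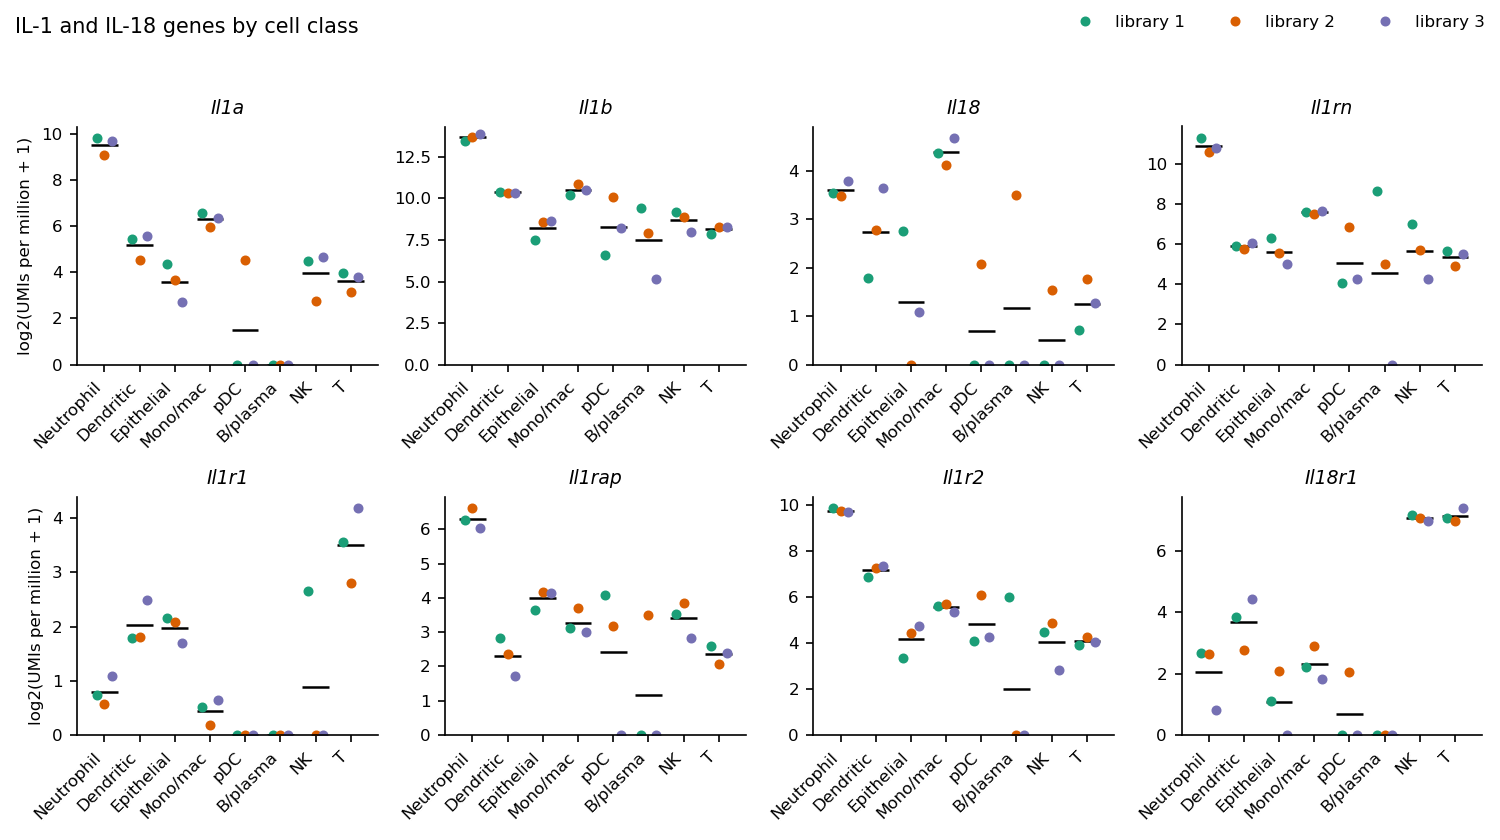
Levels of the 8 genes by cell class, with the log2 of CPM plus 1 on the vertical axis, 1 point per library and a line at the mean of the 3 libraries. Il1a, Il1b, Il1rn, Il1r2 and Il1rap peak in neutrophil-like cells, Il18 in monocyte/macrophage-like cells, and Il1r1 and Il18r1 in lymphocytes.

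Il18 and its receptor followed another pattern. Il18 was highest in monocyte/macrophage-like cells at 19.8, 16.4 and 24.8 CPM, against 10.7, 10.2 and 12.8 CPM in neutrophil-like cells, which overlapped with the 2.44, 5.85 and 11.6 CPM of dendritic-cell-like cells. Monocyte-like cells had more Il18 than the pooled macrophage-like cells, with 31.1, 26.5 and 48.3 CPM against 17.3, 11.6 and 19.1 CPM. The macrophage-like cluster led by Ccl8 and Retnla, at 29.0 ± 11.6 CPM, overlapped with the monocyte-like values. The clusters led by Ms4a7 and by Hist1h2ap had 12.4 ± 4.3 and 10.9 ± 7.1 CPM. Il18r1 was a lymphocyte transcript, at 143.1, 135.5 and 126.8 CPM in NK-cell-like and 133.9, 124.5 and 167.9 CPM in T-cell-like cells, which overlapped. Dendritic-cell-like cells came next at 13.4, 5.85 and 20.8 CPM, and every other class was at 6.45 CPM or lower. T-cell-like cells thus carried the receptor and few Il18 UMIs, 9 in all.

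Within the T-cell-like class, 55 of the 56 Il1r1 UMIs lay in 1 cluster of 885 barcodes led by Il17a, Trdc and Tcrg-C1 (Il17a encodes the cytokine IL-17A, and Trdc the delta chain of the gamma-delta T-cell receptor). IL-1 is known to drive IL-17 production by T cells through IL-1R1. In this cluster Il1r1 stood at 28.3, 37.0 and 36.5 CPM in libraries 1 to 3, with 33.9 ± 4.9 CPM as the mean, and Il18r1 at 199.9, 224.3 and 250.5 CPM. Il1r1 itself was not among the genes used to draw the clusters. T-cell-like barcodes were also sorted by detected genes into Foxp3-detected (44, Foxp3 being the regulatory T-cell factor) and CD8 barcodes (1182, with a Cd8 gene and without Cd4 or Foxp3). CD8 barcodes held 1 Il1r1 UMI, and Foxp3-detected barcodes held 0, which allows up to 30.1 CPM. The CD8 level is thus bounded well below that of the cluster led by Il17a, and the Foxp3-detected level is not. A larger T-cell-like cluster of 570 barcodes was led by Tnfrsf4, Tnfrsf18 and Tnfsf8, with Ikzf2 and Ctla4 among its leading genes. That cluster held 0 Il1r1 UMIs, which allows up to 3.49 CPM. Il18r1 was 269.8, 174.2 and 172.1 CPM in Foxp3-detected and 52.7, 81.8 and 60.4 CPM in CD8 barcodes. The CD8 values were below the Foxp3-detected values in every library, and the Foxp3-detected values rest on 18 UMIs. Il1r2 in Foxp3-detected barcodes was 0, 116.1 and 172.1 CPM from 12 UMIs, against 9.76, 17.5 and 10.8 CPM in CD8 barcodes. These 12 UMIs lay in 4 of the 44 barcodes, and the cluster led by Tnfrsf4 had 26.5 ± 19.1 CPM of Il1r2. Il1b was also higher in Foxp3-detected barcodes, at 547 ± 243 against 217 ± 104 CPM in CD8 barcodes. The part of neutrophil transcripts in this Il1r2 was not tested. Sorting by detection favours barcodes with more UMIs, and the median depths of these barcodes ran between 1137 and 1859 UMIs per library.

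Between neutrophil-like and monocyte/macrophage-like cells, 5 of the 7 members tested were higher in neutrophil-like cells and 1 was lower, where 66.5% of all 9410 genes passed in either direction. Il1r2 differed most, by 4.49 ± 0.18 on the log2 scale (adjusted p = 3.61e-20, higher in 3 of 3 libraries). Il1rn was higher by 3.58 ± 0.22 (adjusted p = 1.95e-15), Il1a by 3.52 ± 0.17 (adjusted p = 1.87e-18), Il1b by 3.43 ± 0.30 (adjusted p = 5.93e-12) and Il1rap by 3.39 ± 0.16 (adjusted p = 3.47e-18). Il18 was lower by 0.59 ± 0.25 (log2 difference -0.59, adjusted p = 0.0377, lower in 3 of 3 libraries), a call that DESeq2 did not make and that was lost without library 1 or library 3 (-0.60 and -0.48), and Il18r1 differed by -0.18 ± 0.48 (adjusted p = 0.755). Of the 21 Il18r1 UMIs in neutrophil-like cells, 8 lay in 32 barcodes led by the T-cell genes Trbc2 and Ccl5, and their part in this difference was not tested. Il1r1 had too few UMIs to pass the filter on low counts in any comparison. Without that filter all 8 members passed between neutrophil-like and T-cell-like cells, where 7272 of 17590 genes did. The 2 lower in neutrophil-like cells were then Il18r1 and Il1r1, the latter from 5 UMIs against 56. Over all genes, 2935 were higher and 3321 lower in neutrophil-like cells, and with scaling to library totals 2278 and 4073, and the median of all genes moved from -0.09 to -0.34. Against T-cell-like cells all 7 members tested passed, where 65% of all genes did, with Il18r1 lower in neutrophil-like cells by 5.16 (log2 difference -5.16 ± 0.30, adjusted p = 2.59e-16) and the other 6 higher, between 2.86 ± 0.46 for Il18 (adjusted p = 2.24e-06) and 6.21 ± 0.22 for Il1a (adjusted p = 1.31e-21).

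Dendritic-cell-like cells differed from monocyte/macrophage-like cells in 5 of 7 members, where 30% of all genes passed. The decoy receptor Il1r2 was higher in dendritic-cell-like cells by 1.72 ± 0.19 (adjusted p = 6.63e-09), and Il18r1 by 1.37 ± 0.48 (adjusted p = 0.0289, higher in 2 of 3 libraries), which no longer passed without library 1 (1.06) or library 3 (0.88) and stood at 2.38 without library 2. Il1rn differed by -1.64 ± 0.27 (adjusted p = 7.81e-06), Il18 by -1.62 ± 0.39 (adjusted p = 0.0015) and Il1a by -1.05 ± 0.23 (adjusted p = 0.000425), each lower in dendritic-cell-like cells in 3 of 3 libraries. Il1b differed by only -0.01 ± 0.27 (adjusted p = 0.985), and Il1rap by -0.96 ± 0.40 (adjusted p = 0.069). Epithelial-like cells differed from monocyte/macrophage-like cells in 6 of 7 members, where 61.9% of all genes passed, with Il1rap higher by 0.71 ± 0.27 (adjusted p = 0.0247), a call lost without any 1 of the libraries (0.49 to 0.83), and with Il18, Il1a, Il1b, Il1rn and Il1r2 lower, by log2 differences between -3.18 ± 0.47 for Il18 (-5.17 without library 1) and -1.36 ± 0.26 for Il1r2. NK-cell-like and T-cell-like cells differed in 0 of 7 members by edgeR and by DESeq2, where 9.31% of all genes passed (876, and 1915 at an unadjusted p under 0.05, and 795 by DESeq2). Il1rap came nearest, higher in NK-cell-like cells by 1.33 ± 0.56 with an unadjusted p of 0.0244 and an adjusted p of 0.154. Of all genes, 318 were higher and 558 lower in NK-cell-like cells, and 402 and 436 with scaling to library totals.

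Low Il1 levels outside the neutrophil-like class were set against S100a8 in the same cells. Neutrophil-like cells held 0.527 ± 0.090 Il1b UMIs per S100a8 UMI, T-cell-like cells 0.828 ± 0.097 and epithelial-like cells 0.853 ± 0.223, while monocyte/macrophage-like cells held 2.61 ± 0.57 and dendritic-cell-like cells 7.07 ± 3.46. All 4 of these other classes were above the neutrophil-like ratio of 0.459, 0.493 and 0.629 in libraries 1 to 3, dendritic-cell-like cells most. NK-cell-like cells were above it as well, at 0.475, 0.896 and 3. Plasmacytoid-dendritic-cell-like cells, at 0.286, 1.77 and 0.611, were below it in libraries 1 and 3. B-or-plasma-cell-like cells, at 1.22, 2.3 and 0.333, were below it in library 3. The neutrophil-like ratio is itself a mixture, with 1.74 ± 0.53 in Siglecf-high, 0.333 ± 0.031 in Cxcl3-high and 0.332 ± 0.082 in Retnlg-high cells, neutrophil states described further on. Il1r2 gave 0.0346 ± 0.0033 in neutrophil-like, 0.811 ± 0.522 in dendritic-cell-like, 0.0487 ± 0.0147 in epithelial-like, 0.0803 ± 0.0016 in monocyte/macrophage-like and 0.0463 ± 0.0029 in T-cell-like cells, the same order as for Il1b at its ends.

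Neutrophil-like barcodes held most UMIs of 5 members, with 74.6 ± 9.4% of all Il1a, 71.5 ± 12.2% of Il1b, 75.1 ± 8.8% of Il1rn, 76.9 ± 7.0% of Il1r2 and 66.8 ± 8.4% of Il1rap UMIs. They were 6036 of the 14225 kept barcodes. Per 100 barcodes they held more UMIs of all 5 members than monocyte/macrophage-like ones, with 1402 against 753.6 for Il1b. Epithelial-like barcodes held more Il1rap UMIs, at 15.07 per 100 against 8.07 in neutrophil-like ones. Dendritic-cell-like barcodes held 69.5 Il1r2 UMIs per 100, against 88.4 in neutrophil-like ones. The Il1b share was 68.6%, 61.1% and 84.9% in libraries 1 to 3, and the highest value came from library 3, where neutrophil-like barcodes were most frequent. Of Il18 UMIs, 17.8 ± 7.1% came from neutrophil-like and 73.9 ± 6.1% from monocyte/macrophage-like barcodes. Neutrophil-like barcodes held 1.97 ± 1.12% of Il18r1 and 5.76 ± 2.89% of Il1r1 UMIs. Where barcodes needed 500 genes and could hold no more than 5% of mitochondrial UMIs, neutrophil-like cells held 57.9% of Il1b UMIs (SD 19.96, n = 3).

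The other genes of the pathway were followed as 4 lists, IL-1 family genes beside the members, genes of cleavage and release, signalling genes and responding genes. In neutrophil-like against monocyte/macrophage-like cells, 2 of 4 tested family genes were higher and 1 lower, 4 and 1 of 8 in cleavage and release, 4 and 2 of 8 in signalling, and 8 and 1 of 10 in the responding list, where 66.5% of all genes passed. Their median log2 differences were 1.57, 0.50, 0.58 and 1.58, beside -0.09 over all genes. Il1f9, which encodes IL-36 gamma, was higher by 5.12 ± 0.13 (368 ± 21.2 against 12.1 ± 2.6 CPM), and Il18rap, the accessory chain of the IL-18 receptor, by 2.91 ± 0.21 (39.5 ± 7.9 against 6.10 ± 1.04 CPM), while Sigirr, an inhibitory receptor of the family, was lower at 0.413 ± 0.382 CPM from 3 UMIs, against 5.17 ± 1.19 CPM. Casp4, the caspase of the non-canonical inflammasome, was higher by 2.35 ± 0.14, the sensor Nlrp3 by 1.75 ± 0.14 and the serine protease Prtn3 by 1.43 ± 0.22, while the adaptor Pycard (ASC) was lower, with 46.4 ± 5.7 CPM in neutrophil-like against 239 ± 19.5 CPM in monocyte/macrophage-like cells (log2 difference -2.10 ± 0.16). Among signalling genes the kinase gene Irak2 was higher by 2.87 ± 0.11, the adaptor Myd88 by 1.62 ± 0.12, Tollip by 1.26 ± 0.17 and the ubiquitin ligase Traf6 by 1.10 ± 0.21. Among responding genes the chemokine Cxcl2 was higher by 4.05 ± 0.36, the iron-binding protein gene Lcn2 by 3.75 ± 0.16, the cyclooxygenase Ptgs2 by 3.57 ± 0.20 and the NF-kB inhibitor Nfkbia by 2.96 ± 0.18. The adjusted p of these named genes was at most 3.47e-05.

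The same 4 lists were counted in the other class comparisons. Against T-cell-like cells, where 65% of all genes passed, neutrophil-like cells were higher in 3 and lower in 1 of 4 family genes, 5 and 1 of 8 in cleavage and release, 5 and 1 of 8 in signalling and 8 and 2 of 10 responding genes. Dendritic-cell-like cells, with 30% of all genes passing, were higher than monocyte/macrophage-like cells in 1 family gene (Sigirr, 1.48 ± 0.34) and lower in 2, with 0 and 4 in cleavage and release, 0 and 2 in signalling and 2 and 5 in the responding list, where the NF-kB subunit genes Rel (1.31 ± 0.12) and Nfkb1 (1.27 ± 0.14) were the higher ones. Epithelial-like cells, with 61.9% of all genes passing, were lower in 2 family, 6 cleavage and release, 5 signalling and 8 responding genes, and higher in Prtn3 (3.51 ± 0.19), Lcn2 (7.41 ± 0.19) and Cxcl1 (1.58 ± 0.32). NK-cell-like cells were higher than T-cell-like cells in Il18rap by 1.54 ± 0.32 (47.3 ± 14.4 against 14.9 ± 0.9 CPM, adjusted p = 0.00104), so that the accessory chain of the IL-18 receptor passed the test where Il18r1 did not. They were lower in Casp1, Nfkbia and Tnfaip3, by log2 differences of -1.17 ± 0.37, -0.69 ± 0.20 and -0.64 ± 0.20, and none of these 3 passed with library totals (-1.08, -0.58 and -0.55), where Il18rap did. In this comparison 9.31% of all genes passed.

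The neutrophil-like barcodes were clustered again with the 8 members, the pathway lists and Icam1 kept out of the genes used, and the subclusters were called by their highest state gene as Siglecf-high (2063 barcodes), Cxcl3-high (1642) and Retnlg-high (1136). Siglecf encodes a sialic-acid-binding receptor known on eosinophils and on some tumour neutrophils, Cxcl3 a chemokine that attracts neutrophils, and Retnlg a resistin-like protein of blood and marrow neutrophils. Of the rest, 581 barcodes were led by the interferon-response genes Cxcl10 and Ifit3b, 582 by Gm12589 and Aldh2, and 32 by the T-cell genes Trbc2 and Ccl5. The states were drawn from the same barcodes in which they are compared, so the tests take them as given.

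Each state had a different IL-1 profile, and that of the Retnlg-high state changed with a finer clustering given further on. Il1a was highest in Siglecf-high cells at 1441, 1026 and 1495 CPM, against 578.2, 324.0 and 471.2 CPM in Cxcl3-high and 578.1, 418.9 and 390.3 CPM in Retnlg-high cells. The Siglecf-high values did not overlap with those of these 2 states, which overlapped with each other. The cells led by Gm12589 and Aldh2 had 1312, 773.6 and 1018 CPM of Il1a, below the Siglecf-high value in each library, in ranges that overlapped. Il1b was 11560, 12510 and 15380 CPM in Siglecf-high, 7820, 7916 and 8793 CPM in Cxcl3-high and 18580, 17900 and 24120 CPM in Retnlg-high cells, so the 3 states did not overlap and Retnlg-high cells were highest. Il1rn ran in another order, with 614.6, 601.4 and 641.3 CPM in Siglecf-high, 3879, 2511 and 3094 CPM in Cxcl3-high and 1260, 1081 and 1060 CPM in Retnlg-high cells, again without overlap. The cells led by Gm12589 and Aldh2 were near the Cxcl3-high level of Il1rn with 4233, 2715 and 2621 CPM, and those led by Cxcl10 and Ifit3b had 3623, 1637 and 2102 CPM of Il1rn and 15350, 17930 and 21300 CPM of Il1b.

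The receptor genes and Il18 also differed between states. Il1r2 was 969.3, 724.2 and 816.0 CPM in Siglecf-high, 812.1, 756.0 and 759.2 CPM in Cxcl3-high and 1182, 990.5 and 975.6 CPM in Retnlg-high cells, of which the first 2 overlapped and the Retnlg-high values were the highest of the 3 states. The cells led by Cxcl10 and Ifit3b were higher still in each library, at 1208, 1159 and 1038 CPM of Il1r2. Il1rap was 33.0, 47.9 and 31.7 CPM in Siglecf-high, 91.0, 99.6 and 57.6 CPM in Cxcl3-high and 145.8, 121.4 and 123.0 CPM in Retnlg-high cells, in 3 separate ranges. Il18 was low in all 3 states, with 6, 32 and 7 UMIs and 3.03 ± 2.63, 15.4 ± 6.9 and 5.87 ± 2.36 CPM in Siglecf-high, Cxcl3-high and Retnlg-high cells. Il18 was highest in the cells led by Cxcl10 and Ifit3b, at 87.3, 13.0 and 46.6 CPM from 21 UMIs. Il1r1 had 3, 1 and 1 UMIs and Il18r1 had 7, 3 and 1 UMIs in the 3 states.

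**Figure D2:**
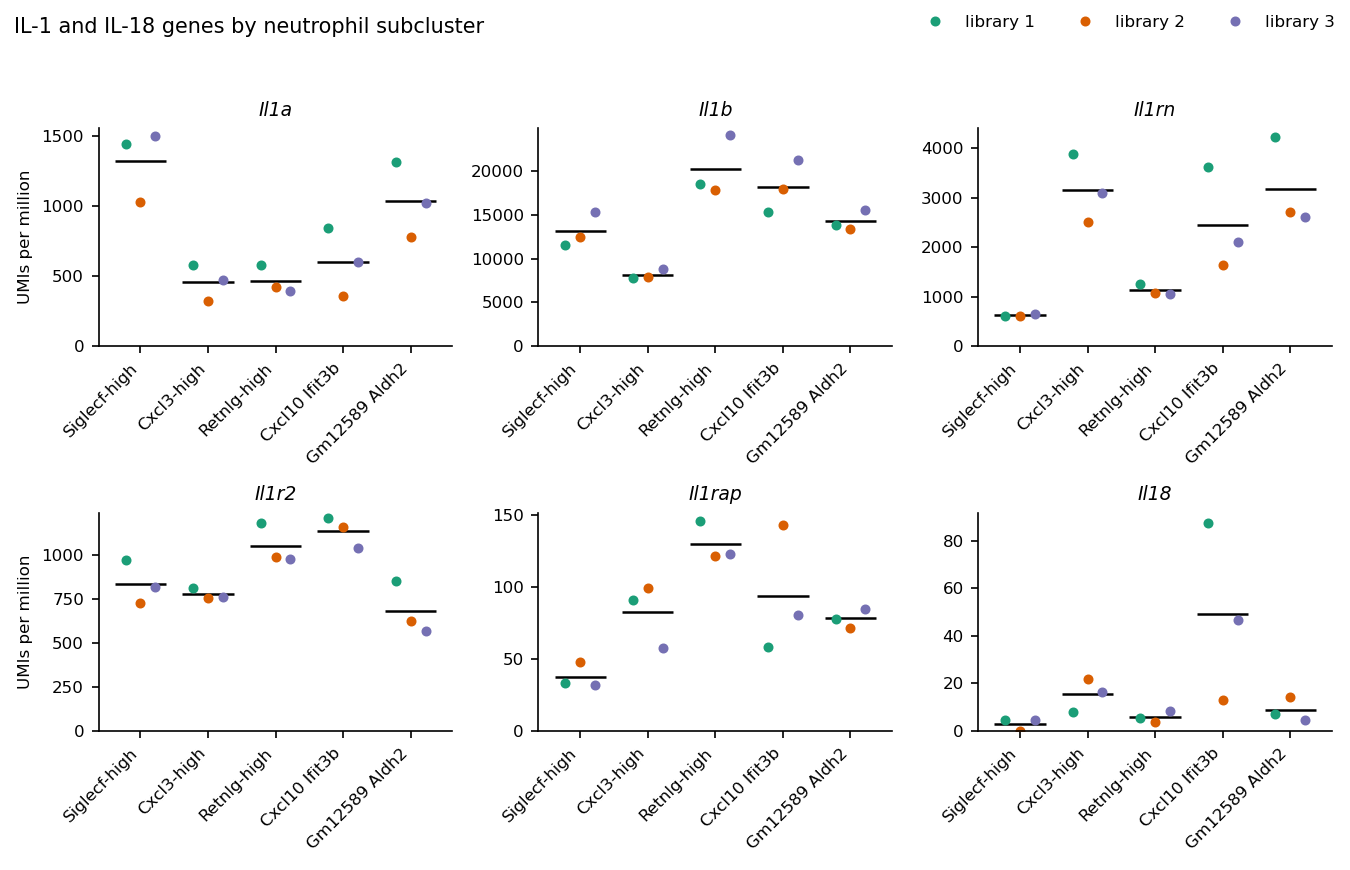
Levels of 6 genes in neutrophil subclusters in CPM, 1 point per library with a line at the mean. By their means Il1a is highest in Siglecf-high cells, Il1b and Il1rap in Retnlg-high cells, Il1r2 and Il18 in the cells led by Cxcl10 and Ifit3b, and Il1rn in Cxcl3-high cells and in the cells led by Gm12589 and Aldh2.

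Between Siglecf-high and Cxcl3-high cells 5 of 6 members tested passed, where 67.5% of all 5105 genes did. Il1rn was lower in Siglecf-high cells by 3.22 (log2 difference -3.22 ± 0.12, adjusted p = 5.17e-27), Il18 differed by -3.02 ± 0.58 (adjusted p = 1.4e-05) and Il1rap by -1.999 ± 0.22 (adjusted p = 7.47e-11), each lower in 3 of 3 libraries. Il1a was higher in Siglecf-high cells by 0.65 ± 0.12 (adjusted p = 4.86e-06, 3 of 3 libraries). Scaling decided the other directions, since TMM sets the median difference of all genes at 0.01 and library totals set it at 0.90, with 1623 genes higher and 1824 lower in the first case and 3085 and 936 in the second. Il1r2 differed by -0.79 ± 0.11 with TMM (adjusted p = 1.5e-08) and by 0.10 ± 0.10 with library totals, and Il1b by -0.22 ± 0.10 (adjusted p = 0.0589) and by 0.68 ± 0.09, with adjusted p-values between 2.38e-09 and 0.568 over the alternatives. The Il1b CPM itself was higher in Siglecf-high cells in 3 of 3 libraries. Library totals also moved Il1a to 1.55 and Il1rap to -1.11, and Il1r2 was no longer called where states were drawn by detected genes in place of clusters (-0.10).

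Between Siglecf-high and Retnlg-high cells 5 of 6 members passed, where 48.2% of all genes did. Il1a was higher in Siglecf-high cells by 0.98 ± 0.13 (adjusted p = 8.19e-09), and Il1rap by -2.27 ± 0.23 (adjusted p = 1.19e-11), Il1rn by -1.40 ± 0.12 (adjusted p = 3.29e-13), Il1b by -1.16 ± 0.10 (adjusted p = 5.65e-13) and Il1r2 by -0.86 ± 0.11 (adjusted p = 9.94e-09) were lower, each in 3 of 3 libraries. Il18 differed by -1.32 ± 0.85 (adjusted p = 0.199). All genes split into 1194 higher and 1267 lower, and into 2279 and 660 with library totals, which moved the median from -0.00 to 0.52. With library totals Il1a stood at 1.51, Il1rn at -0.87, Il1b at -0.62 and Il1r2 at -0.32. States drawn by detected genes gave 1.72 for Il1a and -0.36 for Il1r2, which was then not called, and a finer clustering gave 4.19 for Il1a, -0.66 for Il1rn and -0.42 for Il1r2. Between Cxcl3-high and Retnlg-high cells 4 of 6 members passed, where 38% of all genes did. Il1rn was higher in Cxcl3-high cells by 1.82 ± 0.12 (adjusted p = 1.01e-17) and Il18 by 1.70 ± 0.60 (adjusted p = 0.0216), and Il1b was lower by 0.94 (log2 difference -0.94 ± 0.10, adjusted p = 2.43e-10), each in 3 of 3 libraries. Il1a was higher by 0.33 ± 0.13 with TMM (adjusted p = 0.0443, 2 of 3 libraries) but differed by -0.04 ± 0.13 with library totals, which gave 756 genes higher and 1515 lower where TMM gave 1197 and 741, and a median of -0.34 against 0.03. The Il1a call was also lost by DESeq2 and without library 1 or library 3 (0.16 without library 3), while states by detected genes gave 1.08 and the finer clustering 3.46. The Il18 call was lost with library totals, by DESeq2 and without library 2 (1.04) or library 3, and the finer clustering gave -0.21. Il1r2 differed by -0.06 ± 0.11 (adjusted p = 0.689) and Il1rap by -0.27 ± 0.19 (adjusted p = 0.279) with TMM. With library totals both were called lower in Cxcl3-high cells, at -0.43 ± 0.11 and -0.64 ± 0.19, so that of the 4 members called 1 was higher and 3 were lower, where TMM gave 3 and 1.

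**Figure D3:**
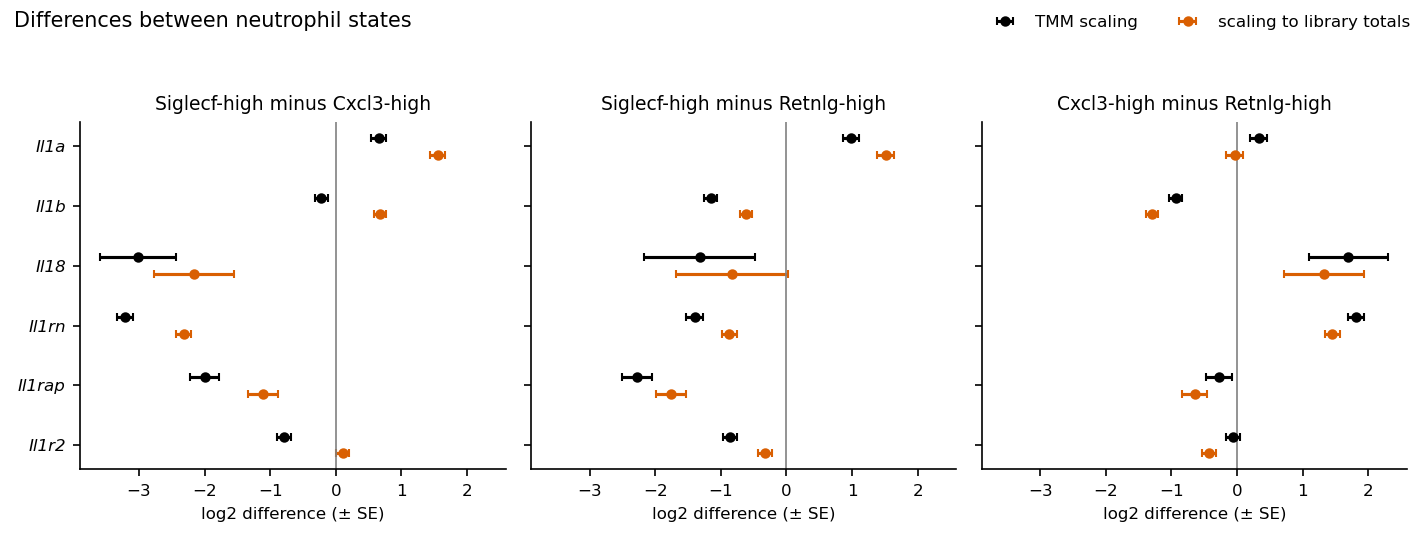
Log2 differences between neutrophil states with their standard errors for 6 genes, scaled by TMM (black) or to library totals (orange). Il1rn lies at -3.22 between Siglecf-high and Cxcl3-high cells and at 1.82 between Cxcl3-high and Retnlg-high cells with TMM, and Il1b and Il1r2 change sign with the scaling between Siglecf-high and Cxcl3-high cells.

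The balance of antagonist to cytokine does not rest on the scaling, since it is a ratio within the same cells. Cxcl3-high cells held 0.496, 0.317 and 0.352 Il1rn UMIs per Il1b UMI in libraries 1 to 3, against 0.0532, 0.0481 and 0.0417 in Siglecf-high and 0.0678, 0.0604 and 0.0440 in Retnlg-high cells. The Cxcl3-high values lay apart from those of both other states, which overlapped. The cells led by Gm12589 and Aldh2 held 0.226 ± 0.071 and those led by Cxcl10 and Ifit3b 0.142 ± 0.081. The ratio of Il1a to Il1b was 0.101 ± 0.022 in Siglecf-high, 0.0562 ± 0.0167 in Cxcl3-high and 0.0236 ± 0.0075 in Retnlg-high cells, and the Siglecf-high values of 0.125, 0.0820 and 0.0972 were above the Cxcl3-high values of 0.0739, 0.0409 and 0.0536 in every library.

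**Figure D4:**
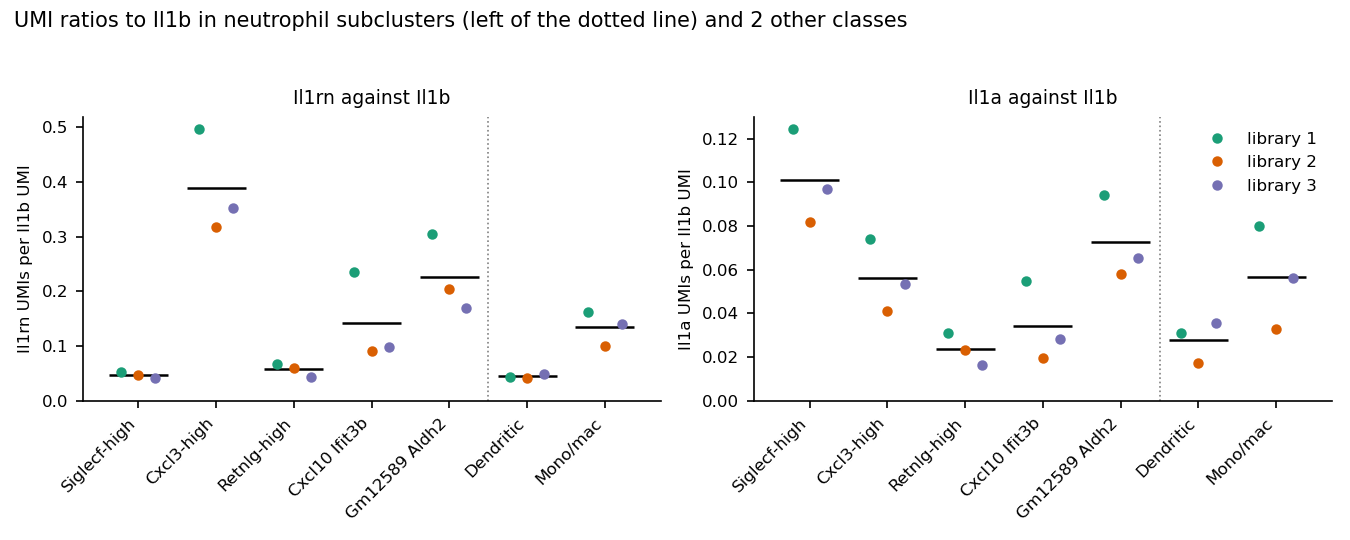
Il1rn (left) and Il1a (right) UMIs per Il1b UMI in neutrophil subclusters and, right of the dotted line, in dendritic-cell-like and monocyte/macrophage-like cells, 1 point per library with a line at the mean. The Il1rn ratio is highest in Cxcl3-high cells at a mean of 0.388, and the Il1a ratio in Siglecf-high cells at 0.101.

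Detection in single barcodes thinned to 600 UMIs showed the same contrast. Il1rn was found in 21.1 ± 2.3% of Siglecf-high, 68.4 ± 7.4% of Cxcl3-high and 34.6 ± 1.7% of Retnlg-high barcodes, Il1b in 97.2 ± 0.9%, 76.1 ± 2.5% and 99.2 ± 0.3%, and Il1a in 40.0 ± 5.3%, 17.9 ± 7.2% and 17.4 ± 5.9%. T-cell-like barcodes showed Il1rn in 1.29 ± 0.74% and Il1a in 0.325 ± 0.200% at the same depth. Over all neutrophil-like barcodes, Il1rn was found in 42.8 ± 5.1% of those with an Il1b UMI and in 63.7 ± 8.7% of those without. Within Siglecf-high barcodes these shares were 20.9 ± 2.3% and 26.9 ± 4.5%, and within Cxcl3-high barcodes 67.8 ± 6.8% and 70.2 ± 9.8%, so the gap over all barcodes was wider than the gap within either of these states. Within Retnlg-high barcodes the shares ran the other way, 34.8 ± 1.7% with and 11.1 ± 19.3% without an Il1b UMI, where few barcodes lacked one. Over all neutrophil-like barcodes Il1a behaved the other way, found in 27.8 ± 6.7% of those with an Il1b UMI and 13.8 ± 7.0% of those without, in that order in each library. Within Siglecf-high barcodes the Il1a shares were 40.2 ± 5.2% and 32.6 ± 10.8%, and within Cxcl3-high barcodes 19.9 ± 7.7% and 11.5 ± 5.6%, again narrower gaps than over all barcodes. Within Retnlg-high barcodes they were 17.3 ± 5.6% and 33.3 ± 57.7%, the latter from few barcodes.

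A finer clustering (resolution 1) split the states and showed the members unevenly spread within them. The Retnlg-high cells there were 192 barcodes led by Retnlg, Ifitm6 and Ly6g, and their Il1a was 42.3 ± 22.4 CPM from 9 UMIs while their Il1b was 17060 ± 4135 CPM and their Il1rn 569 ± 89.8 CPM. Their Il1r2 was 681 ± 163 CPM and their Il1rap 102 ± 29.9 CPM, so the Retnlg-high levels depended on the clustering. The 911 barcodes led by Lrg1, Hp and Saa3 were not called Retnlg-high. Their Retnlg was 240 ± 28.0 CPM, against 7194 ± 2466 CPM in the 192 barcodes and 604 ± 271 CPM in those led by Cxcl3. These 911 barcodes had 493 ± 110 CPM of Il1a and, at 21600 ± 3141 CPM, the highest Il1b mean of the finer subclusters. Cxcl3-high cells fell into 782 barcodes led by Cxcl3, Gm5416 and Ccl6, with Il1b at 11380 ± 1433 CPM and Il1rn at 2804 ± 609 CPM, and 791 led by Ciart, Gm13391 and Ccdc126, with Il1b at 3854 ± 370 CPM and Il1rn at 3477 ± 811 CPM. The Il1b ranges of these Cxcl3-high groups did not overlap and their Il1rn ranges did. Siglecf-high cells fell into 1219 barcodes led by Ms4a6d and Cd81 and 984 led by Cxcl14, H1f0 and Gpr171, with Il1rn at 889 ± 23.6 and 412 ± 18.2 CPM and Il1a at 1231 ± 325 and 1363 ± 323 CPM. S100a8, a marker of the neutrophil class, differed between the states as well, at 7779 ± 1207 CPM in Siglecf-high, 24720 ± 2840 CPM in Cxcl3-high and 62040 ± 9618 CPM in Retnlg-high cells, and its part in these results was not tested.

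The pathway lists also differed between states. Siglecf-high cells were lower than Cxcl3-high cells in 2 of 3 family genes, 6 of 8 genes of cleavage and release, 5 of 8 signalling genes and 9 of 10 responding genes, and higher in 0, 1, 2 and 1, where 67.5% of all genes passed, with median log2 differences of -1.72, -1.17, -1.03 and -2.54 beside 0.01 over all genes. With library totals the lower counts were 2, 3, 2 and 8 and the higher ones 0, 2, 2 and 1, with medians of -0.84, -0.28, -0.14 and -1.65 beside 0.90. Il1f9 fell to 27.8 ± 8.5 CPM in Siglecf-high cells, against 658 ± 72.6 CPM in Cxcl3-high cells (log2 difference -5.54 ± 0.18). Nlrp3 differed by -2.17 ± 0.19, Pycard by -1.40 ± 0.23, Casp4 by -1.39 ± 0.16 and Casp8 by -1.28 ± 0.20. Irak2 differed by -2.91 ± 0.14, Traf6 by -1.94 ± 0.36 and Tollip by -1.19 ± 0.30, while Myd88 was higher by 0.81 ± 0.14 (383 ± 5.7 against 117 ± 7.2 CPM). Lcn2 differed by -3.66 ± 0.17, Nfkbia by -3.42 ± 0.12, Cxcl2 by -2.97 ± 0.11 and Ptgs2 by -2.48 ± 0.14. The adjusted p of these genes was at most 0.00058 with TMM, and Casp8 and Tollip did not pass with library totals (-0.39 and -0.30).

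Against Retnlg-high cells, Siglecf-high cells were lower in 3 of 3 family, 5 of 8 cleavage and release, 3 of 8 signalling and 7 of 10 responding genes, and higher in 1, the protease gene Prtn3 (0.93 ± 0.38), where 48.2% of all genes passed. With library totals the lower counts were 2, 2, 0 and 7, and 2 genes of cleavage and release and 1 signalling gene were higher. Lcn2 differed by -4.07 ± 0.17, Saa3 by -2.76 ± 0.17 and Nfkbia by -2.36 ± 0.12. Cxcl3-high cells were higher than Retnlg-high cells in 2 of 3 family, 2 of 8 cleavage and release, 2 of 8 signalling and 7 of 10 responding genes and lower in 1, 1, 2 and 3, where 38% of all genes passed. With library totals the higher counts were 1, 0, 1 and 4 and the lower ones 1, 1, 2 and 3. Irak2 was higher in Cxcl3-high cells by 2.65 ± 0.17 (389 ± 34.3 against 77.6 ± 1.1 CPM), Cxcl2 by 1.48 ± 0.11, Nfkbia by 1.06 ± 0.11 and Il1f9 by 1.00 ± 0.13, while Irak4 differed by -1.56 ± 0.34, Saa3 by -1.25 ± 0.16, Il18rap by -0.95 ± 0.27 and Myd88 by -0.91 ± 0.15.

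Icam1, the adhesion molecule in the series title, was used to divide the thinned neutrophil-like barcodes into 378 with an Icam1 UMI and 4901 without. Il1b was 15050, 17320 and 18470 CPM in Icam1-detected and 11040, 13210 and 15020 CPM in Icam1-undetected barcodes, higher by 0.33 ± 0.08 on the log2 scale (adjusted p = 0.0157, 3 of 3 libraries). The 2 ranges did not overlap, by a margin of 15050 to 15020 CPM. It was 1 of 5 members to pass, where 0.788% of all 3933 genes did (18 higher and 13 lower, and 22 and 10 with library totals), and DESeq2 called 0 of them and gave no adjusted p for Il1rap. The adjusted p of Il1b ranged between 8.34e-05 and 0.938 over the alternative settings, and the call was lost without any 1 of the libraries. Il1a was 1032 ± 221 against 789 ± 213 CPM, Il1rn 2150 ± 601 against 1888 ± 526 CPM and Il1r2 914 ± 96.9 against 866 ± 44.9 CPM, with adjusted p-values of 0.363, 0.804 and 0.983. Il1rap was 123 ± 52.9 against 75.0 ± 14.9 CPM from 27 and 218 UMIs, with a log2 difference of 0.63 ± 0.33 (adjusted p = 0.663, higher in 3 of 3 libraries). Of the responding genes Nfkbia and Saa3 were higher in Icam1-detected barcodes, by 0.88 ± 0.10 (adjusted p = 3.87e-09, 3 of 3 libraries) and 1.46 ± 0.18 (adjusted p = 7.09e-08, 2 of 3 libraries), and the other 3 lists had 0 genes that passed.

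The barcodes left unnamed held members as well. A cluster of 146 barcodes led by Gbe1, Adm, Mgarp and Hilpda, genes known to respond to low oxygen, passed no marker set and had the highest Il1r2 level of any cluster, at 1527 ± 375 CPM, with 2485 ± 1103 CPM of Il1b, 838 ± 260 CPM of Il1rn and 315 ± 255 CPM of Il1a, and 0 UMIs of Il1r1 and Il1rap. A cluster of 122 barcodes with T-cell genes and a high median doublet score of 0.243 had 5796 ± 1134 CPM of Il1b and 256 ± 10.6 CPM of Il1r2, far above the 283 ± 40.4 and 15.9 ± 2.0 CPM of T-cell-like cells, and was kept out of the classes.

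The genes whose levels were most like those of each member over 21 class-by-library sums (7 classes in 3 libraries, Pearson's r of log2(CPM + 10) over 4434 genes, a description in which points of a library share its depth and its free RNA) were mostly genes of the class where the member peaked. Il1b was nearest to Tnfaip2 at 0.987, with Pilrb1 and Mcl1 at 0.972. Il1a was nearest to Slc7a11 at 0.966, with Egr1 and Egr2 at 0.96, and Il1rn to P2ry2 at 0.976, Slfn4 at 0.975 and Cxcl2 at 0.974. Il1r2 was nearest to Camkk1 at 0.974, Mreg at 0.969 and Pygl at 0.955, and Il1rap to Card19 at 0.943. Il18 was nearest to Clec4a2 at 0.913, Cxcl14 at 0.911 and Cd302 at 0.908, and Il18r1 to the T-cell signalling adaptor gene Skap1 at 0.986, with Cd226 and Ikzf3 at 0.977.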

How the data were processed

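Droplet single-cell RNA libraries of CD45-sorted cells from 2208L tumours were analysed as UMI counts, as deposited by the authors. Cell Ranger, Seurat and the mm10 build are named per the submitters' processing notes, with program versions not given in the sources used here, and the matrix headers give software version 3.0.0. The labels name a 5′ platform and a 3′ protocol, so the sequenced end is unsettled. The lowest barcode held 500 UMIs. The members, lists and comparisons were chosen with earlier results of these data known.

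A barcode was dropped if it had fewer than 200 genes (22 did) or a mitochondrial share above 10% (107 did). A doublet caller, Scrublet in scanpy, marked 1 barcode (0.00698%) and so had not worked, and an alternative left out the 566 highest scores. Clusters came from 1981 variable genes that held no member, no pathway-list gene and no Icam1, with 30 components, 15 neighbours and Leiden resolution 1 (0.5 for neutrophil states). A class name needed 3 markers in at least 10% of barcodes at 2-fold the other clusters. UMIs were summed per library and class, with at least 20 barcodes in each of 3 libraries for a test, and tested in edgeR with its default filter on low counts. Class and library sums come from the same 3 libraries, so the library was a block. With 24, 40 and 13 barcodes, B-or-plasma-cell-like cells were not tested. A further division of the T-cell-like barcodes is not reported here. Thinning drew 600 UMIs per barcode, and a UMI limit for 0 counts was 3. All 8 members were named, with up to 4 called genes of each list by lowest p and the 3 genes most like each member. Of 52 list genes 48 were in the files. The test was checked on simulated data. Alternatives were library totals, DESeq2, no filter, each library left out, no block, stricter barcode filters, other resolutions, states by detection and thinning to 800 UMIs. The alternative that kept the doublet-scored T-cell cluster was added after the data were seen.

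Tools were Python 3.11.15, matplotlib 3.10.9, pandas 2.3.3, numpy 2.4.6, scanpy 1.11.5, scikit-learn 1.9.0, scipy 1.17.1, igraph 0.11.9, R 4.3.3, edgeR 4.0.16, limma 3.58.1 and DESeq2 1.42.0. Gene positions came from GENCODE vM21, and promoters from RefSeq on GRCm38.p6, which held all 8 members.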

Additional observations from a re-analysis of the deposited data

How the results depend on the processing

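Of 614 values recomputed under an alternative, 541 kept direction and side of the threshold, 31 lost a call, 11 gained one and 31 changed sign, and 31 of the 39 calls held under every alternative run. With 3 libraries, comparisons that leave 1 out rest on 2, and depth limits Il1r1, Il18 in neutrophils and the rare classes. With the stricter barcode filters the Retnlg-high state held 1, 8 and 7 barcodes, so its comparisons were not run, and the neutrophil-like share of UMIs was 57.9% for Il1b, 59.8% for Il1rn and 54.4% for Il1rap.

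Called members between NK-cell-like and T-cell-like cells were 1 without a filter on low counts and 0 to 1 with a library left out, in place of 0, the 1 being Il1b. Of all genes 996 of 17590 passed without the filter, and between 587 and 646 with a library left out. Between Cxcl3-high and Retnlg-high cells the called members were 2 by DESeq2 and 2 to 4 with a library left out, in place of 4. Of all 5105 genes 1461 passed there by DESeq2, and between 1259 and 1782 genes passed with a library left out. With states by detection 4 members were tested, in place of 6, and 1168 genes, in place of 5105. Called members were then 3 for Siglecf-high against Retnlg-high cells, where 698 genes passed. They were 2 for Siglecf-high against Cxcl3-high cells, where 647 genes passed. In the main fit they were 5 each. For Icam1 the count was 0 by DESeq2, without the filter, without the block, with stricter barcode filters, at 800 UMIs and with each library left out (0 to 0), in place of 1.

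The replicate block is the library from which all classes were drawn. Without the block the called members against monocyte/macrophage-like cells were 5 of 7 each for neutrophil-like, dendritic-cell-like and epithelial-like cells. Of all 9410 genes 6093, 2620 and 5674 passed there. Against T-cell-like cells the called members were 7 of 7 for neutrophil-like (6001 genes passed) and 0 of 7 for NK-cell-like cells (835). For Cxcl3-high against Retnlg-high cells they were 3 of 6, where 1747 of 5105 genes passed. They were 5 of 6 each for Siglecf-high against Retnlg-high (2318 genes) and Cxcl3-high cells (3278).

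Signs changed as follows, on the log2 scale, and the cause was not tested. With library totals Il1r2 (0.10) and Il1b (0.68) changed between Siglecf-high and Cxcl3-high cells and Il1a (-0.037) between Cxcl3-high and Retnlg-high cells. States by detection gave 0.31 for Il1b between Siglecf-high and Cxcl3-high cells, and the finer clustering gave 0.20 for Il1r2 and -0.21 for Il18 between Cxcl3-high and Retnlg-high cells, where Il1r2 ran between -0.19 and 0.0085 with a library left out. Between dendritic-cell-like and monocyte/macrophage-like cells Il1b ran between -0.25 and 0.14 with a library left out and was 0.028 without the highest doublet scores, and Il18r1 between neutrophil-like and monocyte/macrophage-like cells ran between -0.62 and 0.31. Between NK-cell-like and T-cell-like cells, where 0 members passed, leaving out a library gave -0.11 to 0.60 for Il1r2, -0.22 to 0.022 for Il18r1 and -0.076 to 0.67 for Il1a, and stricter filters gave -0.10 for Il1a. There, leaving out the highest doublet scores gave -0.15 for Il1rn, -0.22 for Il1a and -0.43 for Il1b, resolution 0.5 gave -0.26 for Il1r2, -0.11 for Il1rn, -0.76 for Il1a and -0.18 for Il1b, and keeping the doublet-scored cluster gave -0.28, -0.11, -0.75 and -0.22 for the same 4 genes. For Icam1, Il1r2 was -0.20 and Il1rn -0.10 without the filter, and Il1r2 ran between -0.030 and 0.099 with a library left out and was -0.19 with stricter filters.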
